A study of Mus musculus with 6 samples.

Results

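Elastic fibre genes were examined in the outer eye wall of mice aged 12 months, dissected as 1 piece that holds the retinal pigment epithelium (RPE), the choroid and the sclera. The set holds 10 genes: Eln, Fbn1, Fbn2, Fbln1, Fbln2, Fbln5, Efemp1, Efemp2, Emilin1 and Lox. They were taken by gene symbol, through probe sets that the platform annotation names with exactly 1 symbol. Of the 10, 8 were measured, among 22180 genes in all, each by 1 probe set; Fbn1 and Efemp2 were not analysed here. One group of 3 arrays came from mice heterozygous for the 5XFAD transgenes, which carry familial Alzheimer's disease mutations in human amyloid precursor protein and presenilin 1 under the neuronal Thy1 promoter. The other group of 3 arrays came from littermates without the transgene, called wild type (WT) below. No experimental treatment was given in either group. The labels do not say whether each array held tissue of 1 animal or of several, so the spread between arrays may be partly technical.

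Elastic fibres let tissue stretch and recoil. Their core is elastin, laid down on a scaffold of fibrillin microfibrils and cross-linked by lysyl oxidases, while fibulins and emilins join elastin, microfibrils and cells. In the outer eye wall such fibres form the middle layer of Bruch's membrane, the thin sheet between the RPE and the choroid, and they also lie in the sclera and in the walls of choroidal arteries. Mutations of human EFEMP1 cause an inherited macular degeneration with drusen, and variants of human FBLN5 have been found in age-related macular degeneration. The series title ties aged 5XFAD mice to a pathology of the dry form of that disease, and the comparison asks whether transcripts of this fibre system differ between the genotypes.

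Values are log2 intensities per array, so a difference of 1 is a doubling; as each gene has its own probes, levels are compared only within a gene. Array medians lay between 5.59 and 5.71, and all 8 measured genes lay in the brighter 50% of genes by mean signal. The RPE label was checked on 10 markers: 9 of them lay between 8.42 and 13.62 on every array, and Best1, a chloride channel gene of the RPE, lay between 4.93 and 5.42. Levels of different probe sets are not comparable, so a low value does not show that a transcript was missing. Because the tissue is a bulk dissection, fewer cells of a type and less RNA per cell cannot be told apart.

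The core protein gene and the cross-linking enzyme gene had the clearest differences, and both were higher in 5XFAD tissue without passing the test over all genes. Lox was 1.46-fold higher and Eln 1.32-fold higher, and for each of them the 3 5XFAD arrays lay above the 3 WT arrays. Efemp1 was 1.33-fold higher with overlapping groups. Fbln1 was 1.17-fold higher with overlapping groups, and the remaining 4 genes lay between 0.954-fold and 1.07-fold. None of the 8 passed a Benjamini-Hochberg adjusted p of 0.05 in limma, a threshold that 5 of the 22180 genes (0.0225%) passed, and the lowest adjusted p among the 8 was 0.53, for Lox.

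**Figure D1:**
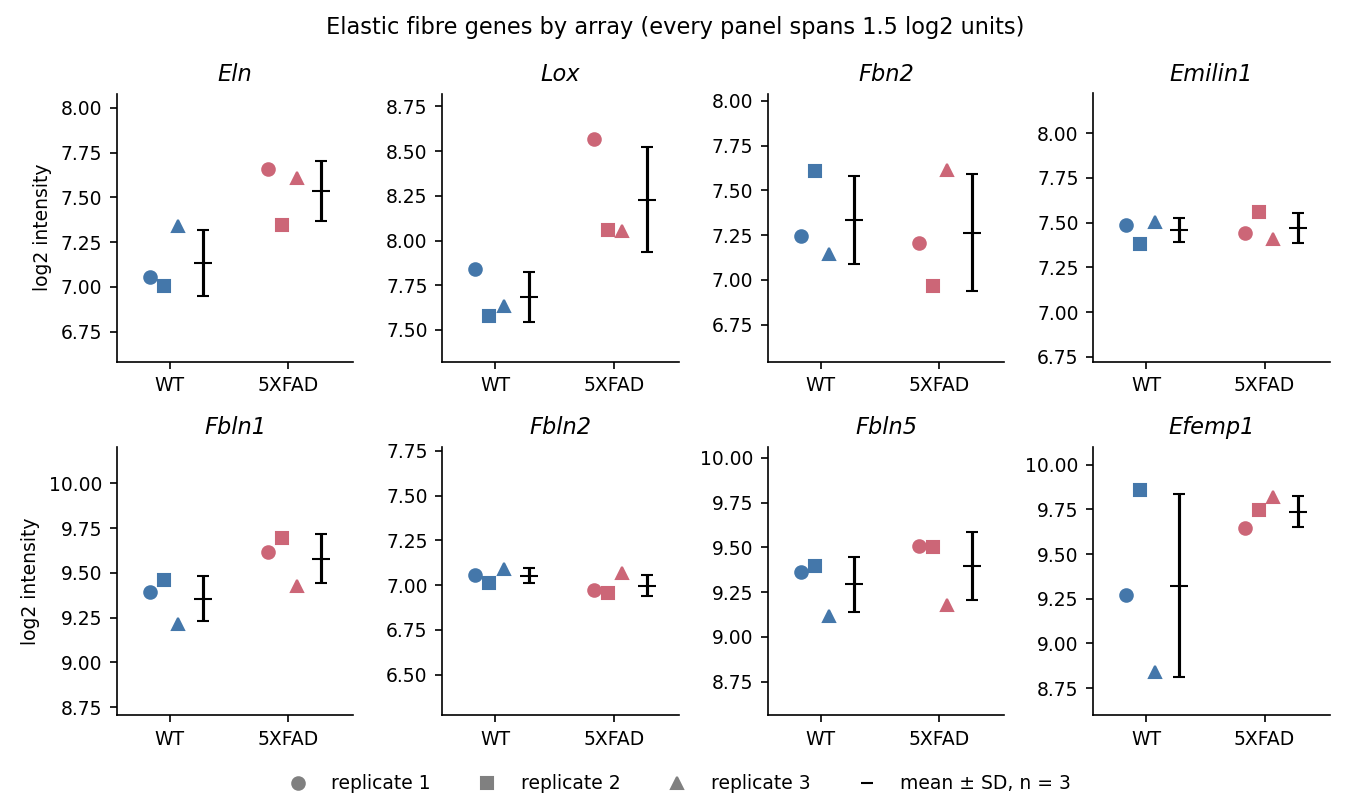
Log2 intensity (vertical axis) of the 8 measured elastic fibre genes on each of 3 WT (blue) and 3 5XFAD (red) arrays; the marker shape gives the replicate number and the black bar the mean ± SD of 3 arrays. The groups are apart for Lox (8.06 and above against 7.84 and below) and just apart for Eln, and the WT arrays of Efemp1 spread from 8.84 to 9.86.

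Eln encodes tropoelastin, the soluble precursor of the elastic core. Its signal was 7.66, 7.35 and 7.61 on 5XFAD arrays 1, 2 and 3, and 7.06, 7.00 and 7.34 on WT arrays 1, 2 and 3. The groups touched: 5XFAD replicate 2 lay only 0.0039 above WT replicate 3, and the other 4 arrays were well apart. The group levels were 7.54 ± 0.17 and 7.13 ± 0.18 (mean ± SD, n = 3 each), a log2 difference of 0.40 ± 0.13 (± SE, 95% interval 0.11 to 0.70; limma, Benjamini-Hochberg adjusted p = 0.64). A difference at least this high was found in 1.61% of all genes.

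Lox encodes lysyl oxidase, the copper enzyme that oxidises lysines of elastin and collagen so that they cross-link. Its signal was 8.57, 8.06 and 8.06 on 5XFAD arrays 1, 2 and 3, against 7.84, 7.58 and 7.64 on WT arrays. All 5XFAD arrays were higher, with a gap of 0.21 between the nearest 2 arrays, and 5XFAD replicate 1 stood above the other two of its group. The levels were 8.23 ± 0.29 and 7.68 ± 0.14 (mean ± SD, n = 3 each), with a log2 difference of 0.54 ± 0.15 (95% interval 0.20 to 0.89; limma, Benjamini-Hochberg adjusted p = 0.53). Only 0.794% of all genes had a difference at least as high. An exact two-sided permutation test over the 6 arrays gave p = 0.1 for both Lox and Eln, the smallest value that 3 against 3 arrays allow.

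Read against the whole array, 2 of the 8 genes (Lox and Eln) were higher at an unadjusted p under 0.05, a mark met by 2.89% of all genes in that direction, and 0 of 8 were lower, where 3.39% of all genes were. Groups did not overlap, with 5XFAD above, in the same 2 of 8, against 4.72% of all genes, and 0 of 8 lay wholly below, against 6.62%. The median log2 difference of the 8 was 0.16, beside -0.01 over all genes. That median was 0.26 without 5XFAD replicate 3 and 0.09 without WT replicate 3. Without 5XFAD replicate 1, Lox alone was under 0.05, as Eln moved to an unadjusted p of 0.051 (limma).

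**Figure D2:**
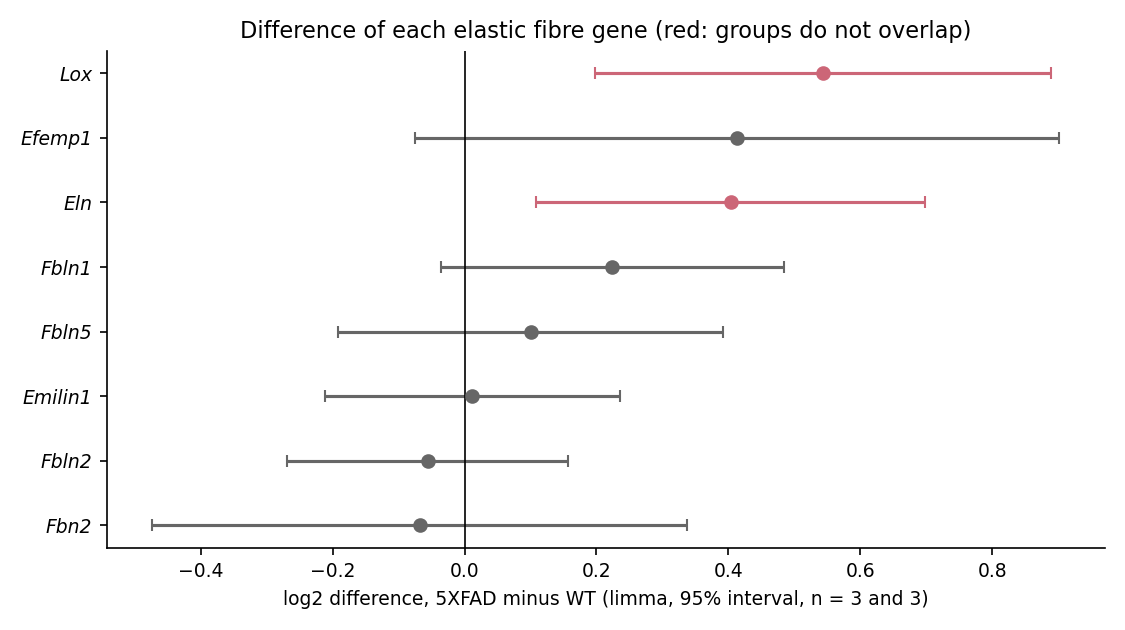
Log2 difference of each measured elastic fibre gene, 5XFAD minus WT (horizontal axis), from limma with its 95% interval, 3 arrays per group; red marks genes whose groups do not overlap. The intervals of Lox (0.20 to 0.89) and Eln (0.11 to 0.70) lie above 0, before any adjustment for the number of genes tested, and the other 6 cross it.

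The microfibril scaffold and its link to elastin showed small differences. Fbn2 encodes fibrillin-2, a microfibril subunit prominent in development. Its signal was 7.21, 6.97 and 7.61 on 5XFAD arrays and 7.24, 7.61 and 7.14 on WT arrays. Each group had 1 array near 7.6 and the ranges overlapped almost fully. The log2 difference was -0.07 ± 0.18 (95% interval -0.47 to 0.34; limma, Benjamini-Hochberg adjusted p = 0.97), and its sign turned when 5XFAD replicate 2 or WT replicate 2 was left out (0.08 and 0.07). Emilin1 encodes a glycoprotein found where elastin meets microfibrils, which also restrains TGF-beta processing. On the 5XFAD arrays it was at 7.44, 7.56 and 7.41, and on the WT arrays at 7.49, 7.38 and 7.51. These 6 values lay within 0.18 of each other, and the log2 difference of 0.01 ± 0.10 had a 95% interval of -0.21 to 0.23 (0.863-fold to 1.18-fold; limma, Benjamini-Hochberg adjusted p = 0.99).

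The fibulins, secreted proteins that bridge elastin, fibrillin and cell surfaces, were measured by 4 genes. Fbln1 encodes fibulin-1, a component of elastic fibres and of basement membranes. Its signal was 9.62, 9.69 and 9.43 on 5XFAD arrays and 9.39, 9.46 and 9.21 on WT arrays. Of the 5XFAD arrays, replicates 1 and 2 lay above all WT arrays and replicate 3 lay under WT replicate 2, so the groups overlapped. The log2 difference was 0.22 ± 0.12 (95% interval -0.04 to 0.48; limma, Benjamini-Hochberg adjusted p = 0.86). Fbln5 encodes fibulin-5, which binds elastin and integrins and is needed to assemble elastic fibres. It was at 9.51, 9.50 and 9.18 on 5XFAD arrays and 9.36, 9.40 and 9.12 on WT arrays. In both groups replicate 3 was the low array, and the log2 difference of 0.10 ± 0.13 lay within that spread (95% interval -0.19 to 0.39; limma, Benjamini-Hochberg adjusted p = 0.96). It was 0.013 without WT replicate 3 and 0.21 without 5XFAD replicate 3.

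Replicate 3 was also the lowest array of its group for Fbln1. In 8 of 10 genes of the fibroblast and sclera list replicate 3 was likewise the lowest array of both groups, and in 1, the collagen gene Col3a1, it was the highest of both. How often this held among all genes was not counted. Over all genes, deviations from the group mean correlated at 0.13 between the replicate 3 arrays, no higher than between 5XFAD replicate 2 and WT replicate 1 (0.13). The proteoglycan gene Lum was at 9.86 and 10.01 on 5XFAD and WT replicate 3 and between 10.36 and 10.68 on the other arrays, and Ogn, of the same family, was at 10.56 and 10.59 against 10.95 to 11.45 on the others. Fbln2 encodes fibulin-2, a partner of fibrillin and of basement membrane proteins. Its 5XFAD values were 6.97, 6.96 and 7.07 and its WT values 7.06, 7.01 and 7.09. It was the steadiest of the 8, with a log2 difference of -0.06 ± 0.09 (95% interval -0.27 to 0.16; limma, Benjamini-Hochberg adjusted p = 0.97). Its highest array in each group was replicate 3, where Fbln1 and Fbln5 were lowest (Pearson r = -0.95 and -0.92 over the 6 arrays), within a range of only 0.13. Between Fbln1 and Fbln5, r was 0.88, and between Eln and Lox 0.78. The other 24 of 28 gene pairs ran from -0.93, for Fbn2 and Emilin1, to 0.72, for Fbln1 and Efemp1. These correlations describe 6 arrays of the same dissections and normalization. They pool both groups, so the r of Eln and Lox, both higher on all 5XFAD arrays, includes the group difference.

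Efemp1 encodes fibulin-3, a matrix protein made by the RPE and by fibroblasts. Its signal was 9.65, 9.75 and 9.82 on 5XFAD arrays and 9.27, 9.86 and 8.84 on WT arrays. The 5XFAD arrays were within 0.17 of each other, whereas the WT arrays ranged over 1.02, with WT replicate 2 the highest of all 6 and WT replicate 3 the lowest. Only 1.24% of all genes had a wider range in WT. The levels were 9.74 ± 0.09 and 9.32 ± 0.51 (mean ± SD, n = 3 each), and the log2 difference of 0.41 ± 0.22 had a 95% interval of -0.08 to 0.90 (limma, Benjamini-Hochberg adjusted p = 0.86). It was 0.68 without WT replicate 2 and 0.17 without WT replicate 3 (limma, Benjamini-Hochberg adjusted p = 0.21 and 0.99), so 1 WT array or another set its size.

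Other matrix genes varied over the same WT arrays, and those named here beside Efemp1 were chosen after their values were seen. Reln, which encodes the secreted glycoprotein reelin, was at 7.96, 9.28 and 6.90 on WT arrays 1, 2 and 3 and at 8.95 to 9.15 on 5XFAD arrays. Vcan, the gene of the proteoglycan versican, which binds fibrillin and fibulins, was at 5.74, 6.87 and 5.65 on WT arrays and 6.58 to 6.89 on 5XFAD arrays. WT replicate 2 lay among or above the 5XFAD arrays in both, and the other two WT arrays lay below them. Ltbp1, a latent TGF-beta binding protein gene, was at 7.47, 8.11 and 7.09 in WT and 7.80 to 7.92 in 5XFAD, and Tgfb2, a TGF-beta ligand gene, at 8.24, 8.76 and 7.32 against 8.53 to 8.93.

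The transcription factor genes Pax6, Zic1 and Otx1 also varied over the same WT arrays. Pax6 was at 7.18, 8.08 and 6.65 in WT and 8.29 to 8.54 in 5XFAD. Zic1 was at 6.51, 7.53 and 5.86 in WT and 7.58 to 8.33 in 5XFAD, and Otx1 at 6.78, 7.65 and 7.01 in WT and 7.65 to 7.94 in 5XFAD. WT replicate 2 was the highest WT array in all 3 genes, as in Efemp1. Over the WT arrays, rod and cone markers went the other way. Their mean log2 intensity was 6.35, 5.45 and 6.16 on WT arrays 1, 2 and 3, so WT replicate 2 was the lowest WT array. It was 6.29, 5.83 and 5.36 on 5XFAD arrays 1, 2 and 3, where Efemp1 varied little, and 5XFAD replicate 3 was the lowest of all 6. The part of any cell type in the Efemp1 values was not tested.

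**Figure D3:**
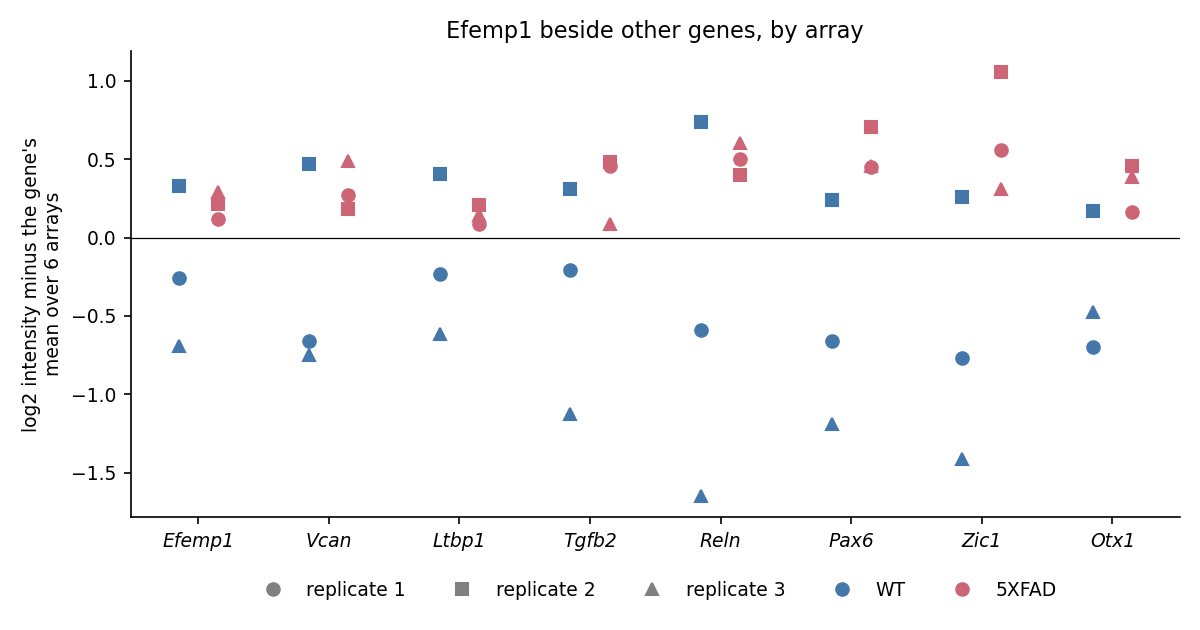
Log2 intensity minus each gene's mean over the 6 arrays (vertical axis) for Efemp1 and 7 other genes, with WT arrays in blue, 5XFAD arrays in red and the replicate number as marker shape. In every gene shown WT replicate 2 (blue square) lies above the other WT arrays, which lie below 0.

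Genes with the most similar profiles over the 6 arrays were sought among 10380 genes above the median signal. For Eln, after Etfbkmt and Tnnc1 (Pearson r = 0.993 and 0.986), came Thbs1 (0.974), which encodes the matrix protein thrombospondin-1. Thbs1 was at 10.87, 10.78 and 10.95 on 5XFAD arrays and 10.61, 10.56 and 10.75 on WT arrays. Vsir (0.961) and Lrrc4b (0.950) followed. For Lox they were Irak3 (0.994), a brake on toll-like receptor signalling, then Abcc3 (0.992), Cerk (0.984), Dpysl3 (0.979) and Pced1a (0.975). For Efemp1 they were Cacna1d (0.997), Zmat3 (0.992), Reln (0.992), Synj2bp (0.991) and Astn2 (0.989). With 6 points and so many genes searched, high values of r are easily met, and the 3 lists shared 0 genes.

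The genes next to Eln and Lox in the RefSeq gene order differed little. Limk1 and Tmem270, the protein-coding neighbours of Eln, had log2 differences of -0.09 ± 0.09 and 0.01 ± 0.13. Srfbp1 and Zfp474, those of Lox, had 0.04 ± 0.13 and -0.03 ± 0.11 (limma, lowest Benjamini-Hochberg adjusted p of the 4 = 0.94).

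Lox was set beside its relatives in a list of 6 measured cross-linking genes. In it 1 gene was higher and 0 lower at an unadjusted p under 0.05 (limma), beside 2.89% and 3.39% of all genes. The median log2 difference was 0.03 (-0.022 without 5XFAD replicate 1 and 0.0045 without WT replicate 2). The higher gene was Loxl3, a lysyl oxidase-like enzyme, at 7.80 to 7.99 in 5XFAD and 7.46 to 7.78 in WT, a difference of 0.28 ± 0.11 (limma, Benjamini-Hochberg adjusted p = 0.76). Loxl4, another member of that enzyme family, was at 6.53 to 6.73 in 5XFAD and 6.69 to 7.31 in WT, with a difference of -0.34 ± 0.15, and Atp7a, the copper pump that loads lysyl oxidases, had -0.20 ± 0.13. Loxl1, which is needed to maintain elastic fibres in adult tissue, was at 9.38 to 9.59 in 5XFAD and 9.42 to 9.51 in WT, a difference of 0.04 ± 0.10. The change of Lox relative to Loxl1, taken within each array, was 0.51, and the arrays of the groups were apart (exact two-sided permutation p = 0.1, the smallest possible). As Loxl1 differed little and was chosen after values were seen, this contrast largely repeats the Lox difference. Relative to Loxl3 the change of Lox was 0.27 with overlapping arrays (exact two-sided permutation p = 0.6).

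The other 54 genes of the elastic fibre pathway had list medians from -0.07 to 0.08, beside -0.01 over all genes. These lists hold dim genes, while all 8 elastic fibre genes are among the brighter 50%. Without the dimmest 50% of genes, medians were 0.16 (elastin breakdown), 0.17 (growth factors held by microfibrils), 0.11 (microfibril partners) and -0.05 (receptors). That of the 8 elastic fibre genes was 0.16. Of 21 microfibril partners, 11 differences were positive and 10 negative with a median of 0.06. At an unadjusted p under 0.05 (limma), 0 were higher and 0 lower, beside 2.89% and 3.39% of all genes. The 3 of smallest p were Adamtsl4, a microfibril-associated protein gene of the eye's zonule, at 8.21 to 8.24 in 5XFAD and 8.34 to 8.60 in WT (-0.23 ± 0.10), Vcan (0.63 ± 0.28) and Hmcn1, which encodes the large fibulin-family protein hemicentin-1 (0.29 ± 0.14). Groups did not overlap in 2 of the 21, Adamtsl4 and Mmrn1, both lower in 5XFAD, beside 6.62% of all genes in that direction.

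Genes of elastin breakdown, the proteases and their inhibitors, had a median of 0.04 over 15 genes. Groups did not overlap in 3 above WT and 1 below, beside 4.72% and 6.62% of all genes. At an unadjusted p under 0.05 (limma), 1 was higher and 0 were lower, beside 2.89% and 3.39% of all genes. The higher one was Ctsl, which encodes the lysosomal protease cathepsin L, at 10.67 to 10.90 in 5XFAD and 10.31 to 10.50 in WT (0.35 ± 0.11; limma, Benjamini-Hochberg adjusted p = 0.60). Ctss, encoding the elastin-cleaving protease cathepsin S, had a difference of 0.22 ± 0.11, and Timp1, a metalloprotease inhibitor gene, 0.21 ± 0.10; in both the groups were apart. Cst3, which encodes the cathepsin inhibitor cystatin C, was wholly lower, at 12.25 to 12.45 in 5XFAD and 12.45 to 12.49 in WT (-0.14 ± 0.10). Timp3, an inhibitor deposited in Bruch's membrane, was at 12.16 to 12.35 in 5XFAD and 12.28 to 12.51 in WT (-0.15 ± 0.11, overlapping).

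Receptors of elastin and fibrillin had a median of -0.07 over 11 genes. Groups did not overlap in 0 above WT and 2 below, beside 4.72% and 6.62% of all genes. At an unadjusted p under 0.05 (limma), 0 were higher and 1 was lower, beside 2.89% and 3.39% of all genes. The lower one was Itgav, the integrin alpha-v chain that binds fibrillins and fibulin-5, at 9.82 to 10.01 in 5XFAD and 10.48 to 10.81 in WT (-0.75 ± 0.12; limma, Benjamini-Hochberg adjusted p = 0.13). A dimmer probe set of Itgav, at 4.10 to 4.37 on all arrays, had 0.00 ± 0.12. Ctsa and Neu1, whose proteins form the elastin receptor complex with a variant of beta-galactosidase, had differences of 0.21 ± 0.12 and -0.23 ± 0.13. Itga5, the alpha-5 chain of a fibronectin-binding integrin, was at 7.11 to 7.36 in 5XFAD and 7.41 to 7.43 in WT, with the groups apart (-0.18 ± 0.10). Among 7 growth factors that microfibrils hold, 0 were higher and 1 was lower at that mark, beside the same 2.89% and 3.39%. Groups did not overlap in 1 above WT and 2 below, beside 4.72% and 6.62%. The median was 0.08. That median was -0.0026 without WT replicate 3, -9.5e-05 without 5XFAD replicate 1 and 0.17 without WT replicate 1. The lower one was Bmp4, at 9.57 to 10.05 in 5XFAD and 10.20 to 10.72 in WT (-0.53 ± 0.17; limma, Benjamini-Hochberg adjusted p = 0.65). Tgfb2 had 0.68 ± 0.30 and Tgfb3 0.33 ± 0.15, neither under 0.05. Each named difference is a log2 value ± SE, and 0 of these 60 genes, the 6 cross-linking genes included, passed over all genes (limma, lowest Benjamini-Hochberg adjusted p = 0.13).

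**Figure D4:**
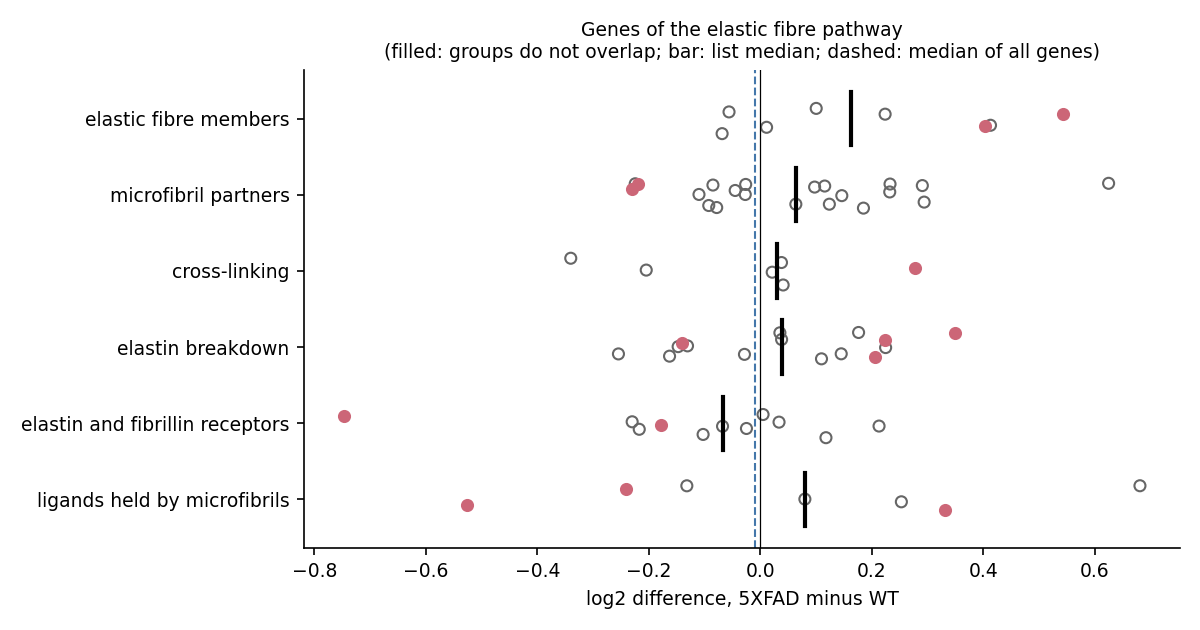
Log2 difference, 5XFAD minus WT (horizontal axis), of each measured gene in the elastic fibre set and 5 pathway lists; filled points are genes whose groups do not overlap, black bars list medians and the dashed line the median of all genes. Medians run from -0.07 (receptors) to 0.16 (the elastic fibre set), and both signs occur in each list.

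Markers of other cell types differed between the same arrays. As list level, the mean log2 intensity of its genes on an array, smooth muscle and pericyte markers were at 8.70 to 9.03 in 5XFAD and 8.63 to 8.65 in WT, with 7 of 10 genes positive. Of these 10, 3 were higher and 0 lower at an unadjusted p under 0.05 (limma), beside 2.89% and 3.39% of all genes. Groups did not overlap in 3 above WT and 0 below, beside 4.72% and 6.62%. The highest array of this list was 5XFAD replicate 2, which was the lowest 5XFAD array for Eln. Its lowest 5XFAD array was replicate 3, which was also the lowest for Lox, narrowly (8.055 against 8.061 on replicate 2). Fibroblast and sclera markers overlapped, at 10.11 to 10.41 in 5XFAD and 10.09 to 10.33 in WT, with 6 of 10 positive. They were highest on 5XFAD replicate 1, as Lox and Eln were. Skeletal muscle markers ranged from 6.46 to 7.94 in 5XFAD and from 5.60 to 7.29 in WT, with 9 of 10 positive. They too were highest on 5XFAD replicate 1, and next highest on WT replicate 3.

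Surface epithelium markers were at 6.28 to 7.14 against 4.81 to 4.95, with 7 of 7 positive, and RPE markers at 10.57 to 10.73 against 10.96 to 11.08, with 9 of 10 negative. Macrophage markers were at 8.82 to 9.22 against 8.82 to 8.87, with 8 of 9 positive, and also highest on 5XFAD replicate 1. Endothelial markers overlapped, at 8.58 to 8.94 against 8.82 to 8.88, with 4 of 10 positive, as did cartilage and tendon markers, at 7.42 to 7.80 against 7.48 to 7.67, with 4 of 7 positive. The levels of pigment cells (6 of 7 positive), rods and cones (1 of 8), adipocytes (2 of 5) and Schwann cells (2 of 3) overlapped as well. Of these, adipocyte markers were highest on 5XFAD replicate 1. Log2 intensities have no true 0, so no marker can be called absent, and the part of these cell types in the Lox and Eln differences was not tested.

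**Figure D5:**
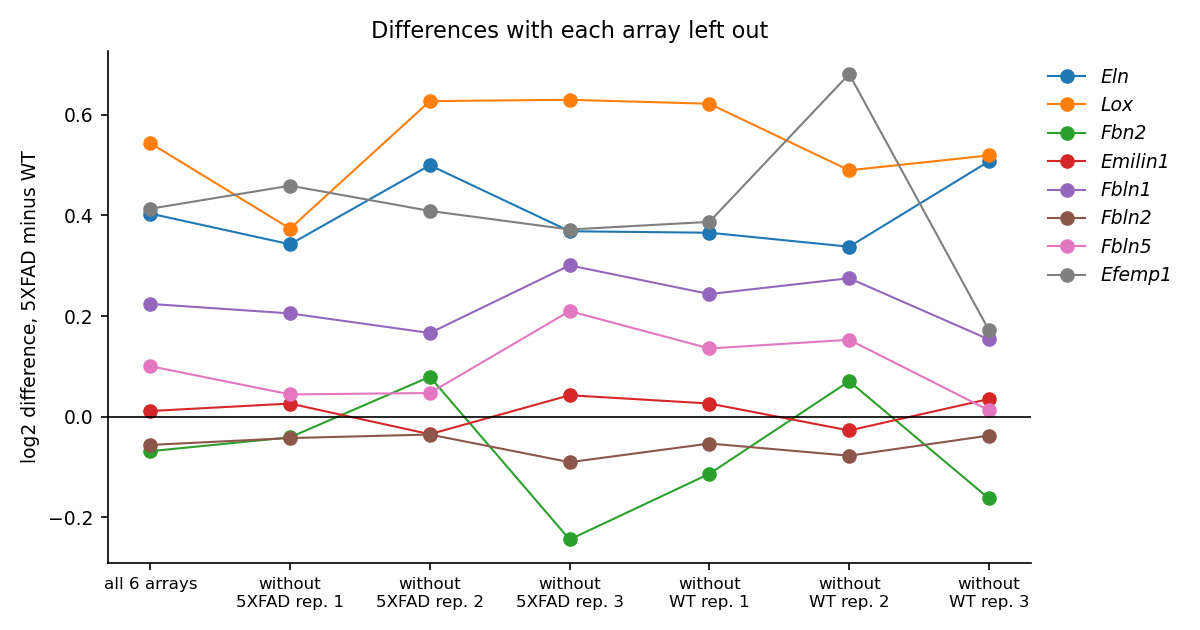
Log2 difference, 5XFAD minus WT (vertical axis), of the 8 measured elastic fibre genes with all 6 arrays and with each array left out in turn (horizontal axis). Lox (0.37 to 0.63) and Eln (0.34 to 0.51) stay above 0 throughout, as genes whose groups do not overlap must. Efemp1 moves between 0.17 and 0.68, and Fbn2 and Emilin1 cross 0.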

How the data were processed

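RNA of 6 samples was hybridised to Affymetrix arrays, 1 array per sample, and grouped by the sample titles. The authors deposited log2 intensities, 1 per probe set and array. The submitters' processing notes name RMA and Affymetrix Expression Console 1.1; filters, genome build: not given in the sources used here. RMA compresses the fold changes of dim genes. Of 33793 probe sets, 23521 had 1 symbol in the platform annotation; the brightest probe set per gene was kept. The 3 5XFAD and 3 WT arrays entered a limma fit (version 3.58.1, R 4.3.3; no covariate; lmFit, then two-sided eBayes) with Benjamini-Hochberg adjustment over all 22180 genes, after a test on simulated data. Members and gene lists were chosen with earlier results of these data known. Lists are described by counts and medians, with no test. Named genes were all members, the 3 of smallest p in each pathway list, and the 5 of highest Pearson r with Eln and Lox, passing over predicted genes, receptors of smell and small RNAs; names outside this rule (Efemp1's like genes, Pax6, Zic1, Otx1, Ltbp1, Loxl1, Timp3, Mmrn1, Cst3, Neu1, Col3a1, Lum, Ogn, Best1 and the neighbours of Eln and Lox) were chosen after values were seen.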

Additional observations from a re-analysis of the deposited data

How the results depend on the processing

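Over 15 alternatives, Lox had an unadjusted p under 0.05 (limma) in all 15 (log2 difference 0.37 to 0.63) and Eln in 14 (0.34 to 0.51). Leaving out 1 array could not turn their direction, as their groups do not overlap. A block for the replicate number, the filters of dim genes and the handling of several probe sets left both differences unchanged by design. In none of 120 values did an elastic fibre gene pass over all genes (limma, Benjamini-Hochberg adjusted p from 0.21 for Efemp1 upward). Lox ran from 0.30 to 0.91 and Eln from 0.44 to 0.96 (limma, Benjamini-Hochberg adjusted p). With each array left out, the count of genes at an unadjusted p under 0.05 was 1 to 3, their median difference 0.094 to 0.26, Fbn2 -0.24 to 0.079 and Emilin1 -0.035 to 0.043; list medians were -0.014 to 0.068 (microfibril partners), -0.022 to 0.043 (cross-linking), 0.011 to 0.053 (elastin breakdown), -0.066 to -0.038 (receptors) and -0.0026 to 0.17 (growth factors). The elastin breakdown median was 0.11 and 0.16 without the dimmest 30% and 50% of genes, which leaves fewer of its genes. Without the dimmest 50%, medians were 0.11 (microfibril partners), 0.17 (growth factors), 0.03 (cross-linking) and -0.05 (receptors). That of the 8 elastic fibre genes was 0.16. Deviations of same-numbered arrays from their group means correlated at -0.06, -0.05 and 0.13 for numbers 1, 2 and 3. Positive values were also met for 5XFAD replicate 2 with WT replicate 1 (0.13) and 5XFAD replicate 1 with WT replicate 2 (0.12). The labels name no pairing, and a batch shared between arrays was not tested. With the replicate block the count of elastic fibre genes at an unadjusted p under 0.05 stayed 2 (limma). The median of the 8 stayed 0.16, which a block cannot change when each replicate number has 1 array per group. With 3 arrays per group, 0.1 is the smallest exact p.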
